A study of Mus musculus with 61 samples.

Results

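The cytochrome P450 family was followed in mouse adipose tissue as the 68 genes of a table of 21169 whose symbol begins with Cyp and a digit, leaving out Cyp51 of cholesterol synthesis. Of these members, 60 passed a filter on low counts and entered the tests, with 18603 genes in all. The 8 others (Cyp26a1, Cyp2j8, Cyp2j12, Cyp2t4, Cyp3a57, Cyp4a31, Cyp4f37 and Cyp4x1) stayed at or under 1.07 CPM in all 61 libraries, CPM being counts scaled to a common library size. Poly(A) RNA of adipose tissue had been sequenced from mice on a diet high in fat and sugar, given in the labels as 45 percent fat. The 8 groups are founder strains of the Diversity Outbred population, with 7 libraries each of 129, AJ and Cast and 8 libraries each of B6, NOD, NZO, PWK and WSB. All groups had the same diet, and none was left on chow. Sex, age, fat depot and batch are not in the labels, nor is it stated whether each library is a separate animal, so p-values measure only the spread between these samples. Total counts ran from 19851580 to 61277576 per library.

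Cytochromes P450 are haem enzymes that put 1 oxygen atom of O2 into a lipophilic substrate, with electrons that reach most of them in the endoplasmic reticulum from NADPH through the reductase Por. Families CYP1 to CYP3 are best known for clearing drugs, solvents and other foreign compounds in liver, CYP4 and CYP2J for oxidising fatty acids and eicosanoids, and others for making or breaking down steroids, bile acids, vitamin D and retinoic acid. In adipose tissue such enzymes act on stored fat-soluble compounds and on lipid signals.

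The regions just upstream of Cyp2e1, Cyp2b10 and Cyp4f16 are shown because these genes had the largest log2 fold changes of a strain among the 60 tested members. Each run holds the 250 bases before the gene start, on the plus strand of GRCm38.p6, from RefSeq. Capitals mark exact matches, on either strand, to 5 short motifs that were searched, namely the TATA box (TATAAA), the CAAT box (CCAAT), the GC box (GGGCGG), a core of nuclear receptor sites (AGGTCA) and the C/EBP core (TTGCNNAA).
Cyp2e1, chr7:140763569-140763818: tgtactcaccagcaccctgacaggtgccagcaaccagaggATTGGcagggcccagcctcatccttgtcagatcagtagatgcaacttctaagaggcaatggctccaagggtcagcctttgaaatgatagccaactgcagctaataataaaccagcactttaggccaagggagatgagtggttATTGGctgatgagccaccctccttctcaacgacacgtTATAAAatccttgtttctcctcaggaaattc
Cyp2b10, chr7:25897408-25897657: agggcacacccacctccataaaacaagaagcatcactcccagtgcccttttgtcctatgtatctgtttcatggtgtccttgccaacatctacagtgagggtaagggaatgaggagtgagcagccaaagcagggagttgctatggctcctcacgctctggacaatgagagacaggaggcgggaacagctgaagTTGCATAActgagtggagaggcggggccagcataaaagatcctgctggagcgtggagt
Cyp4f16, chr17:32536307-32536556: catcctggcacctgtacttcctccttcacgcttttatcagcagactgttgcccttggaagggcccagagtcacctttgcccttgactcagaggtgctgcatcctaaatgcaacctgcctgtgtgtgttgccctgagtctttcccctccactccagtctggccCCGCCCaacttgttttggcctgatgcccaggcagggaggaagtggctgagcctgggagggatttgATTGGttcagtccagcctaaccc

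Cyp2e1 held TATAAA from 31 bases upstream of the start and CCAAT on the reverse strand from 68 and 210 bases upstream. Cyp2b10 held TTGCNNAA, the core bound by C/EBP factors, from 58 bases upstream. Cyp4f16 held CCAAT from 23 and GGGCGG from 88 bases upstream, both on the reverse strand. Of 32851 windows of this length over all genes, 12.4% held TATAAA, 33.8% CCAAT, 32.7% GGGCGG, 14.0% AGGTCA and 9.56% TTGCNNAA. The authors' annotation starts Cyp2e1 at 140763739 and Cyp2b10 at 25897620, inside these windows, so the RefSeq start is not the only one annotated. RefSeq windows were found for 53 of the 68 members. The windows are those of the reference strain, and sequence of the other strains was not analysed here.

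Cyp2e1, which oxidises ethanol, acetone and small solvents, stood far above the rest of the family. Per kilobase of exon its mean over strains was 1253 CPM per kb, against 45.1 for Cyp4b1, 25.1 for Cyp4v3, 19.6 for Cyp27a1, 11.5 for Cyp20a1 and 10.4 for Cyp1b1, the next 5. Its share of all reads of the family ran from 2.88% in NZO to 93.1% in WSB. Of the tested members, 16 averaged at least 5 CPM over the strain means, and 44 averaged less.

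In the order of levels, WSB had 4896, 9249 and 14450 CPM of Cyp2e1 as its lowest, median and highest library, Cast 3589, 7426 and 13410, B6 276, 1768 and 2785, and NOD 835, 1619 and 2908. PWK had 243, 1195 and 1709 CPM, 129 had 168, 656 and 1193, and AJ had 147, 257 and 1063. NZO had 3.61, 12.2 and 34.5 CPM. Every NZO library lay below every library of the other strains, whose lowest stood at 147 CPM, while neighbouring strains in the order otherwise overlapped, except that every Cast library lay above every B6 library. In edgeR's quasi-likelihood test with Benjamini-Hochberg adjustment, NZO differed from the mean of the other 7 strains by a log2 fold change of -7.05 ± 0.51 (SE, adjusted p = 1.93e-17). WSB (3.72 ± 0.25) and Cast (3.22 ± 0.26) were higher, B6 (1.04 ± 0.29) and NOD (0.98 ± 0.29) were higher by less, and AJ was lower (-1.47 ± 0.38). Between neighbours in the order, Cast against B6 and AJ against NZO passed the test of the pair, and the other 5 steps, WSB against Cast among them (adjusted p = 0.438), did not. In the authors' annotation of GRCm38 the gene (ENSMUSG00000025479) spans 140763739 to 140774975 on the plus strand of chromosome 7. In bulk tissue, fewer cells of a type and less RNA per cell cannot be told apart. The summed CPM of 10 adipocyte markers ran from 12900 to 22800 in NZO libraries with a median of 18900, and from 12200 to 33000 over all libraries with a median of 24400, and their part in the result was not tested.

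Cyp2b10, the classical target of the phenobarbital-activated receptor CAR in mouse liver, was high in Cast and WSB. Cast averaged 123 ± 109 CPM (SD, n = 7), with a lowest, median and highest library of 14.6, 92.0 and 314 CPM. WSB averaged 23.3 ± 19.9 CPM (n = 8), from 5.94 through 13.1 to 60.4 CPM. No library of the other 6 strains exceeded 3.55 CPM, so Cast and WSB overlapped with each other and with no other strain. Against the other 7 strains the log2 fold change was 7.09 ± 0.28 in Cast (adjusted p = 2.64e-29) and 4.34 ± 0.29 in WSB (adjusted p = 5.27e-19) by edgeR's quasi-likelihood test, and the pair itself differed (adjusted p = 5.16e-05). Strain means elsewhere lay between 0.167 CPM in AJ and 1.86 CPM in NOD. Of its exonic 50-base words, 8.70% recur in other genes, most often in Cyp2b13. The other tested members of the subfamily, Cyp2b9 and Cyp2b23, averaged 0.365 and 0.0952 CPM over strains.

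**Figure D1:**
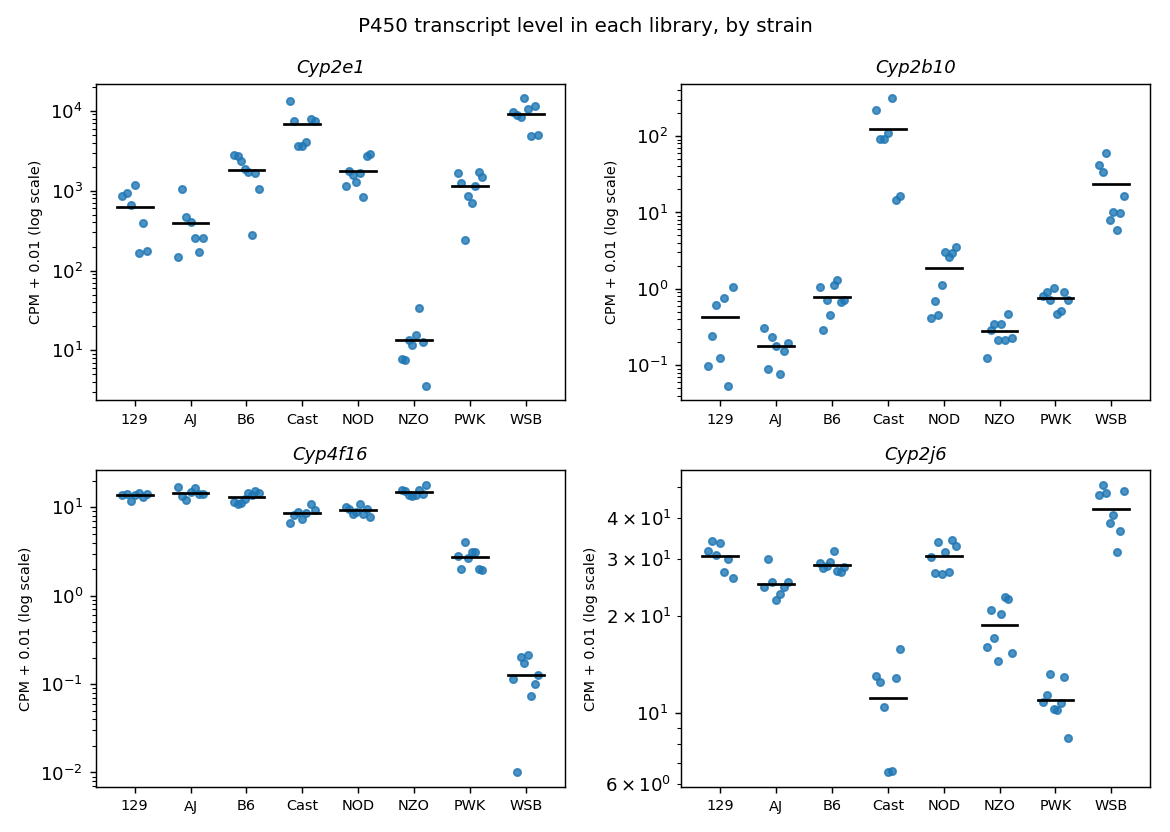
CPM plus 0.01 on a log scale in each of 61 libraries (points) with the mean of each strain (bars) for Cyp2e1, Cyp2b10, Cyp4f16 and Cyp2j6. All 8 NZO libraries lie below every other library for Cyp2e1 and all 8 WSB libraries below every other library for Cyp4f16, while Cyp2b10 is high in Cast and WSB and Cyp2j6 is low in Cast and PWK.

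The Cyp4f genes, omega-hydroxylases of fatty acids and eicosanoids, lie side by side on chromosome 17 except Cyp4f18 on chromosome 8, and neighbours in the cluster followed different strain patterns. Cyp4f16 (17, 32536558 to 32551798, plus strand) had 0, 0.111 and 0.202 CPM as lowest, median and highest in WSB, against 1.93, 11.9 and 18.0 CPM in the other 7 strains, with no overlap. The next strain up was PWK with 1.93, 2.76 and 4.001 CPM, and then Cast with 6.73, 8.66 and 10.8 CPM. By edgeR's quasi-likelihood test WSB stood at a log2 fold change of -6.42 ± 0.19 (adjusted p = 3.46e-35) and PWK at -1.19 ± 0.12 (adjusted p = 6.27e-12). Strain accounted for 97.9% of the variance of its log2 CPM, more than for any other member. NZO, AJ, 129 and B6, at means of 13.0 to 15.0 CPM, passed no test between neighbours in the order. The estimates of Cyp4f16 were not whole numbers in 52.5% of libraries, and 16.3% of its 50-base words recur in Cyp4f37, so reads may have been divided between these copies. Cyp4f37 itself reached at most 0.265 CPM, in a PWK library.

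Cyp4f13 was higher in Cast (29.4 ± 4.75 CPM), PWK (27.1 ± 2.38) and NOD (24.7 ± 2.91) and lower in NZO (13.5 ± 0.94), B6 (14.5 ± 2.26) and AJ (15.5 ± 1.00). Cyp4f17 was highest in NOD, with 24.1, 30.3 and 37.7 CPM, against 6.83, 14.9 and 32.4 CPM in the other 7 strains (log2 fold change 1.03 ± 0.10, adjusted p = 8.46e-12 by edgeR's quasi-likelihood test), and lowest in NZO (9.83 ± 1.87 CPM, log2 fold change -0.86 ± 0.12). WSB, nearly without Cyp4f16, stood at 18.0 ± 3.89 CPM of Cyp4f13, a difference that was not called, and at 20.3 ± 5.35 CPM of Cyp4f17, a small rise (0.33 ± 0.11) whose call ended without WSB replicate 5 (0.20).

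Cyp4f18, known in mouse for degrading leukotrienes in myeloid cells, was highest in PWK, with 6.23, 8.59 and 15.1 CPM against 0.128, 2.02 and 9.60 CPM in the other 7 strains (log2 fold change 2.13 ± 0.27, adjusted p = 1.73e-09 by edgeR's quasi-likelihood test). It was also higher in B6 (1.28 ± 0.28) and lower in WSB (-2.03 ± 0.38) and 129 (-1.21 ± 0.37). The call in 129 ended without replicate 6 or without replicate 7. NZO replicate 8 had 9.60 CPM against 0.437 to 0.999 CPM in the other NZO libraries, and its 10 neutrophil markers summed to 3650 CPM against 17.8 to 51.5 CPM there, whose part in the result was not tested. Cyp4f14, Cyp4f15 and Cyp4f39 averaged 0.549, 1.04 and 0.630 CPM over strains.

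Of the Cyp2j genes, which convert arachidonic acid to epoxides and hydroxy acids, Cyp2j6 was highest in WSB and low in Cast and PWK. WSB had 31.6, 44.1 and 50.8 CPM, against 6.52, 24.5 and 34.2 CPM in the other 7 strains. Cast had 6.52, 12.4 and 15.8 CPM and PWK 8.33, 10.8 and 13.2 CPM. Cast overlapped with PWK and NZO (14.5, 18.6 and 22.8 CPM), and PWK with Cast alone. The log2 fold changes were 1.06 ± 0.08 in WSB, -1.17 ± 0.10 in Cast and -1.18 ± 0.10 in PWK, with adjusted p of 2.09e-16, 3.56e-14 and 3.75e-15 by edgeR's quasi-likelihood test. Cyp2j9 shared the low level in Cast (5.62 ± 1.75 CPM, -0.84 ± 0.12) and was lowest in NZO (4.98 ± 1.43 CPM, -1.04 ± 0.11), while WSB, B6 and NOD lay between 13.0 and 13.2 CPM. Its lower level in PWK (-0.30 ± 0.11) lost its call without PWK replicate 7 (-0.25). That library had 1317 CPM of hepatocyte markers, whose part in this loss was not tested. Over all libraries the slope of Cyp2j9 on those markers beside strain was -0.001 ± 0.021 and was not called.

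Cyp2u1, a hydroxylase of long-chain fatty acids, was high in WSB (39.4 ± 13.1 CPM) and Cast (31.8 ± 12.4 CPM) and lowest in B6 (8.76 ± 1.54 CPM). The log2 fold changes were 1.37 ± 0.12, 1.01 ± 0.13 and -1.11 ± 0.15. WSB against Cast was not called (adjusted p = 0.186, edgeR's quasi-likelihood test of the pair). Cyp4b1, a fatty acid hydroxylase that also activates plant and chemical toxins, was higher in Cast, with 101, 154.5 and 290.4 CPM against 53.7, 84.8 and 185 CPM in the other 7 strains (1.07 ± 0.13, adjusted p = 1.17e-09, edgeR), and lower in AJ (65.4 ± 6.23 CPM, -0.65 ± 0.16). Cyp4v3, the mouse counterpart of the human CYP4V2 fatty acid hydroxylase, was higher in NOD (137.5 ± 16.9 CPM, 0.65 ± 0.10) and lower in PWK, Cast and NZO, at -0.54, -0.45 and -0.37 on the log2 scale. Estimates of Cyp2u1 and Cyp4v3 were fractional in more than 50% of the libraries, and 10.4% of the exon length of Cyp2u1 overlaps a gene on the other strand, from which its reads cannot be told apart where strand was not used.

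Among the enzymes of foreign compounds, Cyp2d22 was high in Cast and WSB. Cast had 43.3, 53.6 and 123 CPM and WSB 40.4, 55.9 and 62.7 CPM, against means of 18.6 to 27.5 CPM in the other 6 strains. The log2 fold changes were 1.33 ± 0.11 in Cast, 0.98 ± 0.10 in WSB, -0.82 ± 0.12 in NZO and -0.53 ± 0.12 in NOD, each with an adjusted p of at most 0.000406 by edgeR's quasi-likelihood test. The small decrease in PWK (-0.31 ± 0.12) was not called without PWK replicate 1 or without PWK replicate 7.

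Cyp1b1, which oxidises polycyclic hydrocarbons and oestradiol and responds to the aryl hydrocarbon receptor, was called in a single strain. That call was lost without a pair of libraries. Cast had 27.4, 83.2 and 216 CPM, against 17.2, 51.4 and 201 CPM in the other 7 strains (log2 fold change 1.02 ± 0.28, adjusted p = 0.00145 by edgeR's quasi-likelihood test). Cast replicates 5 and 6 held 208 and 216 CPM, and without them the change was 0.30 (adjusted p = 0.459). Their adipocyte markers summed to 12180 and 16080 CPM, against 21940 to 31600 CPM in the other Cast libraries, and their 12 macrophage markers to 2551 and 2300 CPM, against 841.5 to 1250 CPM. Whether those markers bear on Cyp1b1 was not tested. Both libraries were among the 3 of Cast low in Xist, where 4 were high, so leaving them out also changed the balance of Xist in Cast. With all libraries and log2 Xist as a covariate, the change in Cast was 0.88 (adjusted p = 2.57e-06, same test). Cyp2b10, Cyp2d22, Cyp2u1, Cyp2s1 and Cyp4b1 kept their calls in Cast without both libraries, at 6.59, 1.24, 1.24, 1.32 and 0.75 on the log2 scale.

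Cyp27a1, the mitochondrial sterol hydroxylase of bile acid synthesis, was the only member of at least 5 CPM not called over the 8 strains (adjusted p = 0.0521 for the F-test of edgeR), with strain means from 31.2 CPM in NZO to 55.9 CPM in AJ. NZO was called lower (-0.49 ± 0.19), but not without NZO replicate 2 or without NZO replicate 7. Cyp7b1, an oxysterol hydroxylase, was highest in PWK, with 2.13, 13.4 and 18.2 CPM against 0.524, 1.62 and 8.05 CPM in the other 7 strains (2.31 ± 0.29, adjusted p = 2.99e-09, edgeR). Cyp39a1, another oxysterol hydroxylase, was higher in Cast (4.94 ± 1.94 CPM) and NZO (4.89 ± 0.73 CPM) and lower in NOD (2.54 ± 0.64 CPM). Cyp26b1, which clears retinoic acid, was higher in AJ (17.7 ± 8.08 CPM, 0.90 ± 0.22) and lower in WSB (6.13 ± 5.41 CPM, -0.84 ± 0.25). Cyp20a1, an orphan enzyme, spread little within strains and was highest in AJ (31.9 ± 2.97 CPM) and lowest in PWK (19.3 ± 1.47 CPM) and Cast (21.1 ± 1.82 CPM). Cyp2s1, found mainly outside the liver, was higher in Cast (18.4 ± 11.8 CPM, 1.12 ± 0.23) and lower in NZO (3.75 ± 1.91 CPM, -1.51 ± 0.27). Cyp2r1, a vitamin D hydroxylase, was lower in WSB (0.374 CPM, -1.90 ± 0.34) and higher in B6 (2.15 CPM, 0.96 ± 0.26).

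**Figure D2:**
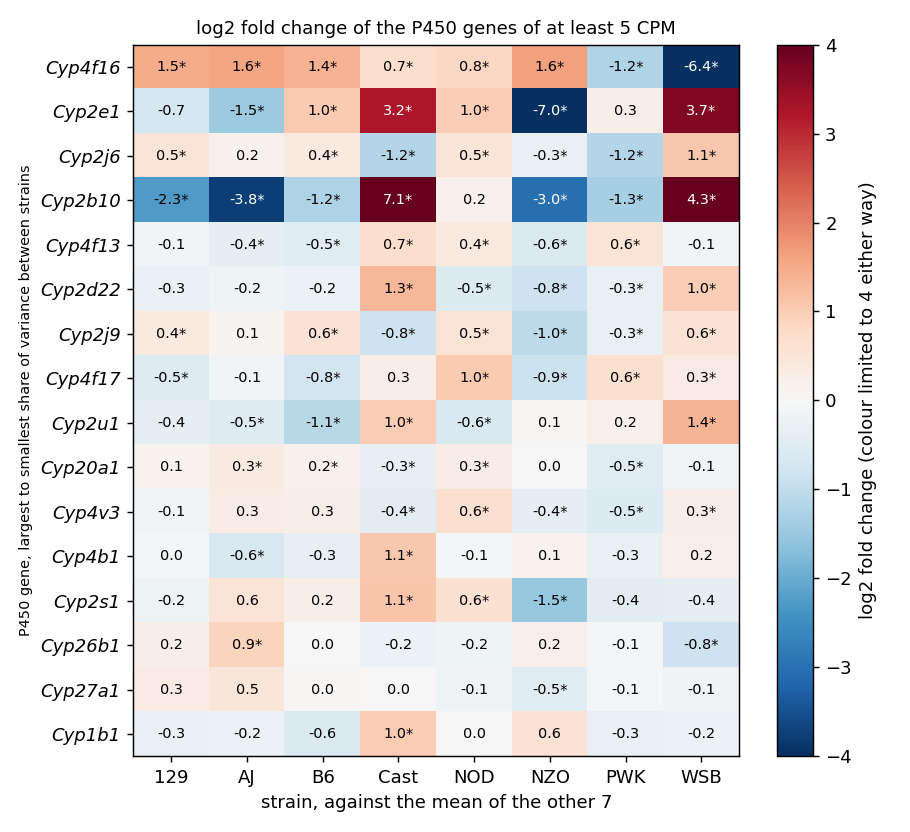
Log2 fold change of each strain against the mean of the other 7 for the 16 P450 genes of at least 5 CPM, ordered by the share of variance between strains, with an asterisk at an adjusted p under 0.05. Cyp2e1 and Cyp2b10 share high values in Cast and WSB and low values in NZO and AJ, whereas Cyp4f16 is lowest in WSB.

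Counted over the family, 52 of 60 tested members (86.7%) were called over the 8 strains, against 89.9% of all genes tested. Strain accounted for a median 31.2% of the variance of log2 CPM in the members and 48.7% in all genes, but 8 members (13.3%) exceeded 80%, against 6.43% of all genes. In Cast 29 members were called higher and 5 lower, where 29.6% and 26.6% of all genes were called. In NZO 4 were higher and 24 lower, against 27.2% and 26.6%. PWK had 23 higher and 12 lower (all genes 24.6% and 19%), WSB 14 and 7 (25.6% and 23.7%), NOD 12 and 7 (14.7% and 11.8%), and B6 12 and 4 (14.6% and 11.7%). AJ had 7 higher and 6 lower (13.4% and 9.59%), and 129 had 4 and 6 (10.8% and 7.78%). The members' median log2 fold change was 1.00 in Cast, 0.66 in PWK and -0.84 in NZO, against 0.02, 0.03 and -0.02 in all genes.

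By role, the enzymes of drugs and other small molecules numbered 28 tested members, of which 17 were higher and 0 lower in Cast, 18 higher and 3 lower in PWK, and 1 higher and 15 lower in NZO, against the shares of all genes given above for each strain. Without the 6 libraries over 500 CPM of hepatocyte markers, 26 of these enzymes were tested, and 8 were higher and 0 lower in Cast, 2 higher and 2 lower in PWK, and 1 higher and 7 lower in NZO. In that fit 34.5% of all genes of at least 5 CPM and 20.3% of those under 5 CPM were higher in Cast. The shares lower in NZO were 28.7% and 20.6%. The counts of these enzymes higher in Cast and lower in NZO thus lay above the shares under 5 CPM and below those of at least 5 CPM. Of the 28 enzymes tested with all libraries, 4 averaged at least 5 CPM, so the shares under 5 CPM apply to most of them. Under 5 CPM, 19.1% of all genes were higher in PWK. Of the 16 fatty acid and eicosanoid oxidases, 7 were higher and 3 lower in Cast, 6 higher and 4 lower in WSB, and 1 higher and 7 lower in NZO. Without those libraries 15 were tested, with 7 higher and 4 lower in Cast, 6 higher and 4 lower in WSB, and 1 higher and 6 lower in NZO. The shares of all genes in that fit given above for Cast and NZO apply here too. For WSB, 31.2% of all genes of at least 5 CPM were higher. Of the 16 members of at least 5 CPM, 10 were lower in NZO, where 29.8% of all genes at that level were, and 9 were higher in Cast (34.7%), 9 in NOD (13.9%), 8 in WSB (31.2%) and 2 in PWK (24.6%). Of the 44 members under 5 CPM, 21 were higher in PWK, where 24.6% of all genes at that level were, 20 were higher in Cast (21.8%) and 14 were lower in NZO (21.9%).

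Of those 44 lower members, 29 followed markers of hepatocytes from library to library. The sum of 16 hepatocyte markers, led by Alb, ran from 5 to 1710 CPM with a median of 88 CPM. It exceeded 500 CPM in AJ replicate 8, B6 replicate 6, Cast replicate 3 and PWK replicates 2, 4 and 7, and did not exceed 62.8 CPM in NZO. With the log2 of this sum beside strain in edgeR's quasi-likelihood test, 29 of the 44 had a positive slope at an adjusted p under 0.05 and 0 a negative one, against 1.63% and 0.0108% of all genes. None of the 16 more abundant members had a slope that passed (0 of 16 in either direction). The slope was 1.61 ± 0.22 for Cyp3a41a, 1.51 ± 0.13 for Cyp2c29 and 1.49 ± 0.12 for Cyp1a2, genes known for their expression in liver, and -0.01 ± 0.06 for Cyp2e1, which is also abundant there. The 6 libraries over 500 CPM, 9.84% of all, held a median 38.8% (range 1.99 to 86.1%) of the summed CPM of the lower members and 8.66% (4.81 to 11.7%) of that of the abundant ones.

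Without those 6 libraries, 41 of the lower members could be tested, of which 9 were higher in Cast (20.3% of all genes under 5 CPM in the same fit), 4 higher in PWK (19.1%) and 5 lower in NZO (20.6%). Of the 16 abundant members, 10 were then higher in Cast (34.5% of all genes of at least 5 CPM), 8 higher in NOD (14%), 8 higher in WSB (31.2%) and 10 lower in NZO (28.7%). Cyp2c68, for example, had 0, 1.36 and 24.5 CPM in PWK, against 0, 0.0292 and 5.52 CPM in the other 7 strains, with 13.0 and 24.5 CPM in PWK replicates 2 and 7 and 0 in replicate 1. Its exons share 43.3% of their 50-base words with other genes, so its count may hold reads of near-identical copies, as may those of Cyp2c67 (52.8%) and Cyp3a41a (98.6%). Cyp2f2, known from airway and liver, was higher in B6 (10.8 ± 9.87 CPM, 2.33 ± 0.43) and lower in NZO (0.455 ± 0.305 CPM, -2.85 ± 0.66). Its call in PWK (1.26 ± 0.46) gave -0.49 without the 6 libraries.

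**Figure D3:**
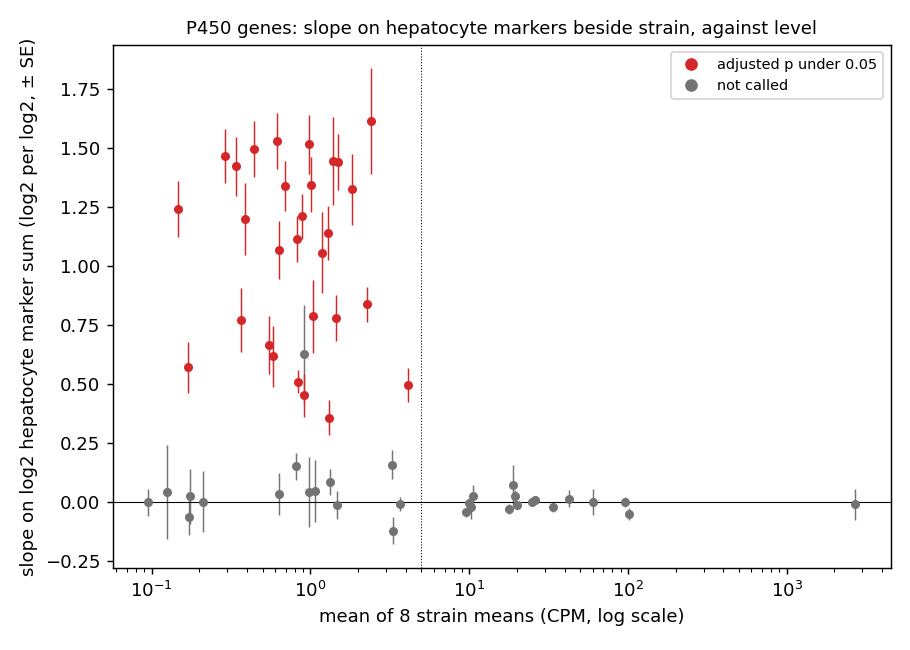
Slope of log2 CPM on the log2 hepatocyte marker sum beside strain (± SE) against the mean of the strain means in CPM (log scale), for the 60 tested P450 genes, with the dotted line at 5 CPM. All 29 genes with a called slope (red) lie left of the line, and the 16 genes right of it lie near 0.

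Many strain calls of members under 5 CPM were lost when a single library was left out. Of 100 called pairs of a strain and such a member, 58 lost their call without at least 1 of the 61 libraries, and of 76 such pairs for the abundant members 8 did. Lost calls were not counted over all genes, so these counts cannot show whether the members differ from other genes of their level. Some of the members' losses came with a fold change that fell away, and others with an adjusted p near the threshold. Cyp2a12 in NZO (adjusted p = 0.0478 by edgeR's quasi-likelihood test) lost its call in 23 of these fits. Its log2 fold change stayed between -2.70 and -2.13 throughout. Of the calls higher in Cast, 13 were lost without Cast replicate 3, and of those higher in PWK, 12 without PWK replicate 4. Cyp1a1, the main target of the aryl hydrocarbon receptor, reached 42.6 CPM in WSB replicate 9, where the other WSB libraries held 0.0551 to 0.736 CPM, and the log2 fold change of WSB fell to 0.89 (adjusted p = 0.195, edgeR's quasi-likelihood test) without it, against 4.70 with it. Cyp1b1, another target of that receptor, stood at 24.7 CPM in the same library, the lowest of WSB. Of the steroid-making enzymes, Cyp11a1, which cuts the cholesterol side chain, and Cyp17a1, which makes androgen precursors, stood at 34.7 and 21.9 CPM in WSB replicate 7, with at most 0.951 and 0.634 CPM in the other WSB libraries. Without it, WSB stood at -0.92 for Cyp11a1 and -1.28 for Cyp17a1, against 3.25 and 3.08 with it. The 6 markers of adrenal and gonadal steroid cells in the table summed to 50.3 CPM there, against 8.31 to 15.3 CPM in the other WSB libraries, and their part in the result was not tested. Mc2r (17.7 CPM), Inha (13.6), Star (11.3), Nr5a1 (5.49) and Lhcgr (2.36) lay above the other WSB libraries, whose highest values were 12.6, 0.833, 2.28, 0.490 and 0.869 CPM. Their medians over all libraries were 23.9, 0.506, 2.65, 0.131 and 0.178 CPM. Mc2r, the largest part of the sum, thus lay below its median over all strains, and the sum reached 88.1 CPM in a Cast library. Akr1b7, at 0.192 CPM, lay inside their range of 0 to 3.66 CPM.

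Cyp17a1 also stood at 18.9 CPM in NOD replicate 6, against at most 0.314 CPM in the other NOD libraries, and the change in NOD was -1.15 without it and 2.85 with it (SE 0.71). That library had 1324 CPM of genital duct markers, against 1.94 to 16.3 CPM in the other NOD libraries, and their part in the result was not tested. The other libraries over 300 CPM of these markers, 129 replicates 6, 7 and 9 and B6 replicates 5 and 6, held 0.053 to 0.203 CPM of Cyp17a1. In NOD replicate 6 the steroid cell markers summed to 32.9 CPM, inside the range of 26.4 to 44 CPM in the other NOD libraries. Of these, Akr1b7 stood at 6.81 CPM, against at most 0.194 CPM in the other NOD libraries, and Mc2r, the largest part of the sum, at 20.2 CPM, against 21.2 to 40.5 CPM. Cyp2a4, a steroid hydroxylase of mouse liver, had 35.0 CPM in Cast replicate 3, and without it the change in Cast was -0.06, against 4.72 with it. Its exons share 38.0% of their 50-base words with other genes, chiefly Cyp2a5. Cyp4f15 in AJ (2.01) ended without replicate 3 (-0.09) or without replicate 8, Cyp4a14 in AJ (2.59) without replicate 8 (1.03), and Cyp3a11 in NOD (2.20) without replicate 2 (1.27) or without replicate 8. The higher Cyp4a14 in B6 (2.20) was lost without replicate 4 (1.48), and the higher Cyp11a1 in NZO (1.20) without replicate 1, 3 or 4.

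**Figure D4:**
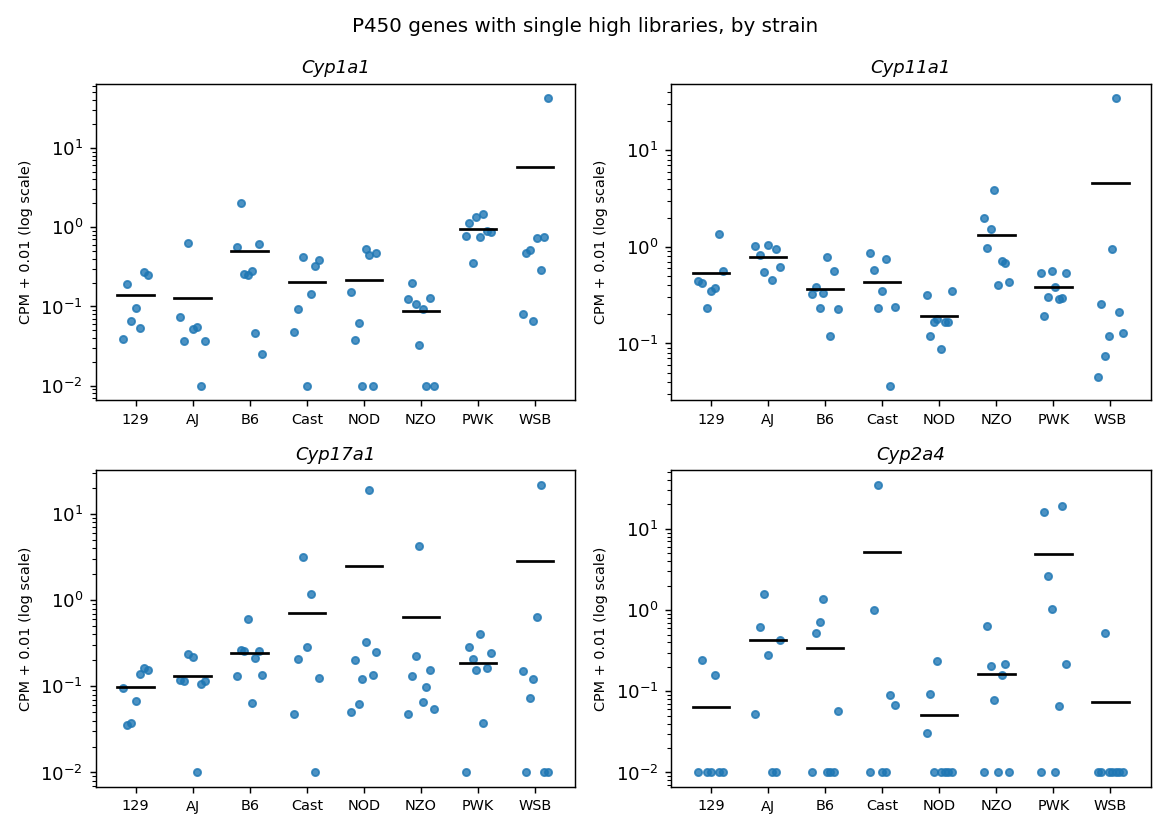
CPM plus 0.01 on a log scale in each of 61 libraries (points) with the mean of each strain (bars) for Cyp1a1, Cyp11a1, Cyp17a1 and Cyp2a4. Single libraries lie far above the others of their strain, at 42.6 CPM of Cyp1a1 in WSB, 34.7 CPM of Cyp11a1 in WSB, 18.9 CPM of Cyp17a1 in NOD and 35.0 CPM of Cyp2a4 in Cast.

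Several P450 genes of mouse liver are known to differ between females and males, and the labels give no sex, so each gene was also fitted on log2 Xist CPM beside strain. Xist is the RNA that coats the inactive X chromosome. Of the 60 members, 10 had a positive slope (all genes 17.9%) and 6 a negative slope (19.5%). The steepest positive slopes were 0.56 ± 0.11 for Cyp3a41a (adjusted p = 5.91e-05 by edgeR's quasi-likelihood test), 0.49 ± 0.10 for Cyp2a4, 0.29 ± 0.08 for Cyp11b1 and 0.28 ± 0.07 for Cyp2b9. In mouse liver Cyp3a41a, Cyp2a4 and Cyp2b9 are known as genes of females, and Cyp11b1 is an enzyme of adrenal steroids. The steepest negative slope was -0.51 ± 0.11 for Cyp2d9 (adjusted p = 0.00019, same test), known there as a gene of males. The 6 libraries over 500 CPM of hepatocyte markers held 75.3% of the summed CPM of Cyp3a41a, 86.1% of Cyp2a4 and 54.5% of Cyp2d9. They held 36.2% for Cyp2b9 and 10.8% for Cyp11b1. Slopes of single genes without these libraries are not given here. The slope with the smallest adjusted p of the 60 was that of Cyp1b1, an abundant member, at -0.16 ± 0.01 (adjusted p = 2.87e-13, same test). When each strain was divided at its widest gap in log2 Xist, a split chosen after these values were seen, the libraries low in Xist held more Cyp1b1 than those high in Xist without overlap in 7 of 8 strains. Cyp1b1 was picked for its slope in the same libraries, so these ranges describe that slope and are no further test of it. How many of all genes separate in this way was not counted. In 129, Cyp1b1 had 69.6 to 82.0 CPM in libraries of at most 4.44 CPM of Xist and 23.1 to 33.6 CPM in those of at least 418 CPM. In NOD the ranges were 70.5 to 96.3 and 23.2 to 35.1 CPM. Cast overlapped, at 83.2 to 216 and 27.4 to 94.0 CPM, where replicate 8 held an intermediate 52.8 CPM of Xist. The other called slopes of abundant members were -0.05 ± 0.01 for Cyp27a1, -0.03 ± 0.01 for Cyp4v3, 0.03 ± 0.01 for Cyp4f13, 0.03 ± 0.01 for Cyp2u1 and 0.06 ± 0.02 for Cyp2s1. With Xist as a covariate, 171 of the 176 called pairs of member and strain kept their call and direction.

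**Figure D5:**
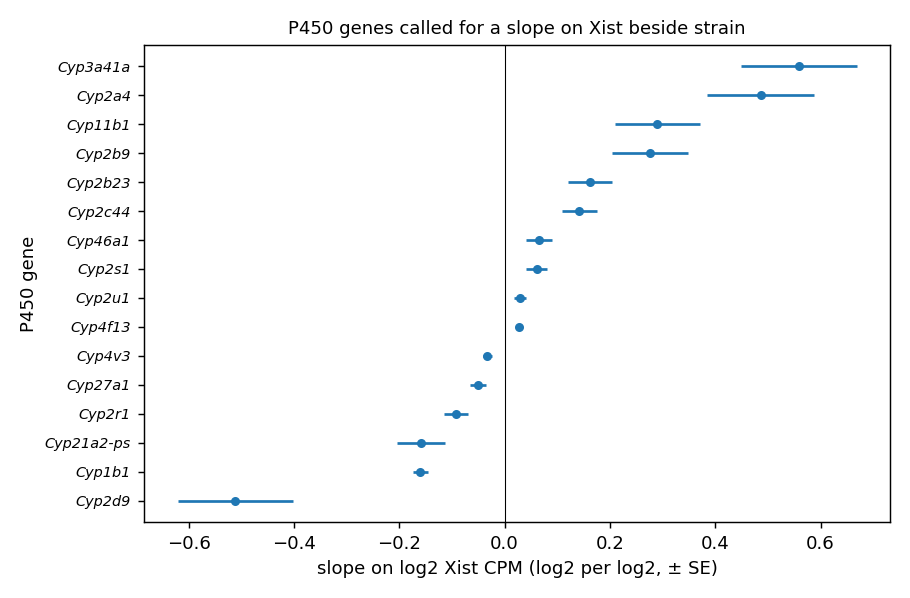
Slope on log2 Xist CPM beside strain (± SE) of the 16 P450 genes with an adjusted p under 0.05. Cyp3a41a at 0.56 and Cyp2d9 at -0.51 lie at the 2 ends.

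Lists of 3 kinds from the same pathway were counted beside the family. Of 17 tested genes on a list of redox partners, 16 were called over the strains, where 89.9% of all genes were. Redox partners pass electrons to P450 enzymes, but the list also holds the haem oxygenase gene Hmox2, whose product does not. In WSB 7 were higher and 3 lower (all genes 25.6% and 23.7%), and in NZO 4 were higher and 7 lower (27.2% and 26.6%). Por, the common reductase, averaged 184 ± 30.3 CPM in NZO (-0.73 ± 0.11), 469 ± 53.9 CPM in WSB (0.81 ± 0.10) and 430 ± 163 CPM in Cast (0.67 ± 0.11). Cyb5a, which aids some P450 reactions, averaged 150 ± 28.4 CPM in NZO (-0.96 ± 0.10) and 434 ± 135 CPM in Cast (0.79 ± 0.09). Other named genes of this list went the other way. Cyb5r2 was lower in Cast (-1.78 ± 0.37) and WSB (-1.66 ± 0.35), and Hmox2 was higher in NZO (0.56 ± 0.06) and lower in WSB (-0.25 ± 0.06). Of 17 tested genes on a list of receptors that sense foreign compounds and lipids, 15 were called. The list also holds Tiparp, whose product is not a receptor. In Cast 9 were higher and 1 lower (all genes 29.6% and 26.6%), and in NZO 2 were higher and 8 lower. The oxysterol receptor gene Nr1h3 averaged 131 ± 38.3 CPM in Cast (0.87 ± 0.08) and 59.6 ± 7.48 CPM in NZO (-0.43 ± 0.08). Vdr (2.83 ± 0.28 and -0.88 ± 0.35) and Tiparp (0.96 ± 0.13 and -0.50 ± 0.14) were likewise higher in Cast and lower in NZO. Both spread widely in Cast, at 18.6 ± 25.2 CPM of Vdr and 115 ± 80.8 CPM of Tiparp (SD, n = 7). Rarb was called in neither Cast nor NZO, and was higher in PWK (0.99 ± 0.12) and lower in WSB (-0.77 ± 0.14). Of 39 conjugation enzymes and epoxide hydrolases, which act on P450 products, 36 were called, with 26 lower and 2 higher in NZO (all genes 26.6% and 27.2%), where their median log2 fold change was -0.85 against -0.02 in all genes. The glutathione transferase Gstm2 averaged 22.7 ± 6.41 CPM in NZO (-2.15 ± 0.15), and Gstt3 averaged 40.7 ± 22.6 CPM in Cast (1.92 ± 0.11). Gsto1 was also higher in Cast (1.85 ± 0.11). Ugt1a7c, with the smallest F-test p of this list, went the other way. It was higher in NZO (35.2 ± 5.95 CPM, 0.76 ± 0.10) and lower in Cast (-0.51 ± 0.12) and WSB (-0.63 ± 0.11).

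Across the 61 libraries, the genes of at least 5 CPM with the pattern most like Cyp2e1, by Pearson's r of log2 CPM over 11205 genes, were Gde1 (0.885), Tppp (0.875), Cfd (0.865), Tceanc2 (0.859) and Mettl7a1 (0.853). These libraries share strain, so the correlations hold strain differences, and within strains r was 0.456 for Gde1, 0.513 for Tppp, 0.669 for Cfd, 0.583 for Mettl7a1 and -0.132 for Tceanc2. Cfd, which encodes the complement factor adipsin, averaged 311 ± 103 CPM in NZO, 6370 ± 2980 CPM in WSB and 5170 ± 2390 CPM in Cast. Gde1, a glycerophosphodiester phosphodiesterase, averaged 24.6 ± 1.84 CPM in NZO, 145 ± 27 CPM in WSB and 158 ± 81.8 CPM in Cast.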

How the data were processed

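Per the labels, RNA came from frozen adipose tissue and poly(A) libraries were made with a spike-in control. The authors deposited a count table, read here as holding expected counts, for 21169 genes in 61 libraries. Of these values 21.1% were not whole within 1e-06, as in estimates that divide a read among genes. The authors also deposited log2 values from a variance-stabilising transformation, per the submitters' processing notes made with DESeq2 on GRCm38. The aligner, the counting tool, the strandedness and whether reads were aligned to 1 reference or to strain genomes are not given in the sources used here. The effect of that choice on levels of single strains was not tested.

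Groups were taken from the strain in each title. Expected counts were rounded, filtered by filterByExpr by strain, normalised by TMM and modelled with edgeR 4.0.16 in R 4.3.3 (robust quasi-likelihood, 1 mean per strain, no covariate). Tests were the F-test over 8 strains, each strain against the plain average of the remaining 7 strain means, 28 pairs to compare neighbours in the order of levels, and slopes on log2 Xist and on log2 hepatocyte marker sum beside strain. All were 2-sided, with Benjamini-Hochberg adjustment over all genes tested and a threshold of 0.05. Levels are TMM-scaled CPM, with a prior count of 2 where logged, and per kb of exon in the GENCODE annotation of GRCm38 where genes are compared. Marker sums are CPM of the library total. The procedure was tested on simulated data.

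Named members were Cyp2e1, Cyp2b10 and Cyp4f16, all of at least 5 CPM, the 10 whose variance lay most between strains, and per strain up to 3 with the largest change in each direction among those of at least 1 CPM in their highest strain. The 5 genes most like Cyp2e1 and up to 4 genes per pathway list by F-test were also taken. Others named here were chosen after their values were seen, as were the hepatocyte slope, the fit without Cast replicates 5 and 6, and the omission of each library in turn. The members and lists were chosen with earlier results of these data known. The alternatives tried were size factors by RLE, no filter, a mean of at least 1 CPM, DESeq2 1.42.0, limma 3.58.1 on the deposited log2 values, the replicate number as a block, Xist as a covariate, and fits without 6 libraries over 500 CPM of hepatocyte markers, 6 over 300 CPM of genital duct markers, NZO replicate 8, Cast replicate 8 or WSB replicate 7. No 2 libraries of a strain agreed above r = 0.9883, and all 61 were kept. Depth was at least 19851580 counts per library. Low members rest on few reads and are the least precise. Shared sequence was measured as 50-base words of a member's transcripts that recur in other genes, and promoters came from RefSeq. The symbols of 23 genes, none of them a member, had become dates in the deposited table and were left as they stood.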

Additional observations from a re-analysis of the deposited data

Results flagged for a closer look

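Of 256 groups, 32 named members in 8 strains, 35 had a library set apart from the rest of its strain by a gap, on the log2 scale, that chance gives in about 1 of 20 groups. For Cyp2e1 these were B6 replicate 6 with 276 CPM, where its strain otherwise held 1062 to 2785 CPM, and PWK replicate 3 with 243 CPM, where PWK otherwise held 704.5 to 1709 CPM. B6 replicate 6 was also low for Cyp2d22 at 17.7 CPM and carried 572 CPM of hepatocyte and 1082 CPM of genital duct markers, whose part was not tested.

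Among the other abundant members, Cyp26b1 stood apart in 129 replicate 2 (22.5 CPM), AJ replicate 2 (4.04) and PWK replicate 7 (5.31), and Cyp2d22 in NOD replicate 8 (28.4) and WSB replicate 7 (40.4). Cast replicate 5 was low for Cyp27a1 (16.2 CPM) and Cyp2j9 (2.35) and high for Cyp4f18 (3.47). Cyp2j6 was high in B6 replicate 5 (31.7), Cyp2s1 low in PWK replicate 2 (2.18), Cyp2u1 high in AJ replicate 3 (18.1) and WSB replicate 9 (70.05), and Cyp4v3 high in WSB replicate 7 (155.6). NZO replicate 8 was high for Cyp4f18 (9.60).

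Among the lower members, Cast replicate 3, rich in hepatocyte markers, stood apart for Cyp2c37 (8.20 CPM), Cyp2c68 (5.52) and Cyp3a41a (24.1). WSB replicate 4 did for Cyp2c37 (0.256), Cyp4a14 (0.320) and Cyp2a4 (0.511), and 129 replicate 7 (0.0662) and NZO replicate 3 (0.144) for Cyp2c37. Cyp2f2 was low in 129 replicate 4 (0.371) and high in WSB replicate 8 (10.5). Cyp17a1 was high in NOD replicate 6 (18.9), NZO replicate 4 (4.30) and WSB replicate 7 (21.9) and at 0 in AJ replicate 5, and Cyp11a1 was high in WSB replicate 7 (34.7). Cyp1a1 was high in AJ replicate 3 (0.619) and WSB replicate 9 (42.6) and low in PWK replicate 3 (0.342).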

How the results depend on the processing

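Counts of called members moved by over 1.5 times in these settings, and the cause was not tested except where fewer genes or libraries enter. Shares of all genes are not set beside these counts. The counts thus cannot show whether the family moved apart from other genes. Without libraries rich in hepatocyte markers, 16 abundant and 41 lower members were tested, and shares for that fit are given above. With the hepatocyte marker sum as a covariate, 16 and 44 were tested. With a mean of at least 1 CPM, which tests fewer members, 30 differed over the strains, 19 were higher in Cast, 12 in PWK and 9 in WSB, 15 were lower in NZO and 4 in NOD, and 6 had a positive slope on Xist. Without the 6 libraries rich in hepatocyte markers, 19 were higher in Cast and 6 in PWK, and 15 were lower in NZO. With the hepatocyte marker sum as a covariate, 17 were lower in 129, 12 in NOD and 13 in NZO, 11 were higher in NZO and 9 in PWK. Without libraries rich in genital duct markers, 2 were lower in 129 and 4 in NOD, and Cyp17a1 in NOD turned to -1.06. Without WSB replicate 7, 11 were higher in AJ and 9 in WSB. Limma gave 4 higher in AJ, 2 in NZO and 12 in PWK, and 4 lower in NOD and 15 in NZO. DESeq2 gave 11 lower in 129. Leaving out each library in turn, the count higher ran from 17 (without Cast replicate 3) to 31 in Cast, from 11 (without PWK replicate 4) to 24 in PWK, from 9 (without WSB replicate 7) to 14 in WSB and from 3 (without AJ replicate 8) to 12 in AJ, and the count lower from 3 (without 129 replicate 6) to 7 in 129, from 7 to 12 (without WSB replicate 8) in WSB and from 17 (without NZO replicate 4) to 26 in NZO.

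Cyp2e1 in NZO, Cyp2b10 in Cast and Cyp4f16 in WSB kept their call and direction in every setting run. Of 48 calls of named members, limma lost 14 and DESeq2 3, and Cyp4f15 in AJ and Cyp3a11 in NOD were lost in both. Without libraries rich in hepatocyte markers 9 were lost, among them Cyp2a4 in Cast and PWK and Cyp4a14 in AJ and NOD, with the hepatocyte covariate 6, among them Cyp2c68 in NZO and Cyp3a41a in PWK, and without libraries rich in genital duct markers 6 in 129 and NOD. With the replicate number as a block, 9 members were higher in WSB and 7 named calls were lost (Cyp2c37 and Cyp2f2 in 129, Cyp4f15 in AJ, Cyp17a1, Cyp3a11, Cyp4a14 and Cyp11a1 in NOD). The median r was 0.108 between libraries with the same number and -0.0184 between others, and 21 of 61 libraries correlated best with their own number, a hint of shared structure in the data. Only 96 of 186 same-number pairs exceeded 0.1 and the labels give the numbers no meaning, so no pairing was assumed.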

Other observations

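Some members under 5 CPM were also called in a strain, though libraries overlapped between the groups. Cyp3a13, a steroid and drug oxidase, had 0.743, 2.73 and 6.75 CPM as lowest, median and highest library in Cast, against 0.0281, 0.213 and 6.85 CPM in the other 7 strains, so the groups overlapped. The log2 fold change of Cast was 3.17 ± 0.41 (adjusted p = 2.06e-09 by edgeR's quasi-likelihood test), and 3.03 without the libraries rich in hepatocyte markers. Cyp3a13 was lower in NZO (-2.07 ± 0.60), a call lost with the hepatocyte marker sum as a covariate (-0.90, adjusted p = 0.15). It was higher in WSB (1.47 ± 0.43), a call that ended without WSB replicate 7 (-0.07). Cyp2c70, which makes muricholic acids in mouse liver, had 3.05, 7.75 and 17.3 CPM in Cast, against 0.0222, 0.544 and 16.1 CPM in the other 7 strains (3.02 ± 0.51). Its higher level in PWK (1.88 ± 0.53) stood at -1.50 without the libraries rich in hepatocyte markers. Cyp2ab1, with no called slope on those markers, was lower in PWK, with 0.0555, 0.475 and 1.34 CPM against 0.158, 1.60 and 3.22 CPM in the other 7 strains (-1.35 ± 0.33, adjusted p = 0.000602, same test).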
